A study of Mus musculus with 12 samples.

Results

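The comparison described here is that of medullary thymic epithelial cells (mTEC) with and without MHC class II, restricted to genes with a substantial level of expression. RNA had been sequenced from 3 libraries of wild-type (WT) mTEC and 3 libraries of Aβ0/0 mTEC, with 6 further libraries of cortical thymic epithelial cells (cTEC) of the same genotypes, which are used here for reference. WT mice were C57BL/6 and came from a vendor. Aβ0/0 mice, labelled AB0 in the plots, carry a disrupted H2-Ab1, the gene of the β chain of the class II molecule I-A, in every cell of the body, so that the mutation is not limited to the thymic epithelium. The mice were 4 to 6 weeks old and thymi of 5 to 10 animals were pooled for each sorting, in which mTEC were taken as Epcam+ CD45- Ly51- UEA1+ cells. The Aβ0/0 pools gave fewer sorted mTEC than the WT pools, with no overlap, so that the number of cells behind a library and the genotype cannot be told apart. A gene was taken as well expressed when its mean over the 6 mTEC libraries reached 10 CPM (counts scaled to a library of 1000000, here with TMM, a normalization that aligns the bulk of genes between libraries). This rule uses both genotypes and no difference between them, and 11075 of 34547 annotated genes met it. Of these, 10919 (98.6%) were protein-coding and 149 were pseudogenes, and they made up 96.4% to 98.2% of each library's counts.

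mTEC present peptides of the body's own proteins to developing T cells. The transcription regulator Aire allows them to transcribe genes that are otherwise restricted to other organs, and MHC class II molecules present part of these products to CD4+ thymocytes. Contacts with CD4+ thymocytes through class II and through TNF family receptors such as RANK and CD40 are known to promote the growth and maturation of mTEC. Mature mTEC are those with high levels of MHC class II, CD80 and Aire, and descendants of these cells take on features of other epithelia, such as tuft cells or microfold cells.

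Estimated counts summed to 21.7 to 33.3 M per mTEC library. Epcam, the epithelial antigen used in the sort, was at 889, 1027 and 1017 CPM in WT and 1100, 1227 and 1051 CPM in Aβ0/0 (log2 fold change -0.2, adjusted p = 0.651). Krt5, a keratin of medullary epithelium that was not used in the sort, was at 1956, 1705 and 1952 CPM in WT and 1936, 2163 and 1892 CPM in Aβ0/0 (log2 fold change -0.09, adjusted p = 0.869). The Aβ0/0 libraries varied more among themselves than the WT libraries. The standard deviation of the log2 level over 3 libraries was larger in Aβ0/0 for 9515 of the 11075 genes (85.9%), with a median of 0.5 in Aβ0/0 and 0.21 in WT.

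Among well-expressed genes, 150 differed between the genotypes at an adjusted p under 0.05 (quasi-likelihood test of edgeR, with the adjustment made over all 18636 genes tested), 89 with a higher level in WT and 61 with a higher level in Aβ0/0. This is 1.35% of them, below the 5.66% among all genes tested. By direction, the background over all genes tested was 5.32% higher in WT and 0.338% higher in Aβ0/0. The genes below 10 CPM accounted for most of the difference, as 904 of 7561 (12%) passed, 902 of them with a higher level in WT and 2 with a higher level in Aβ0/0. WT-higher genes thus made up 94% of all calls and 59.3% of the calls among well-expressed genes. Because 904 of the 1054 calls lay below 10 CPM, the threshold of 0.05 applies to all calls together and not to the 150 alone. A fit of well-expressed genes alone called 38, of which 28 were higher in WT and 10 higher in Aβ0/0. At an unadjusted p under 0.05, 433 well-expressed genes (3.91%, against 10.2% of all genes tested) were higher in WT and 916 (8.27%, against 5.12%) were higher in Aβ0/0. All 3 WT libraries lay above all 3 Aβ0/0 libraries for 870 well-expressed genes (7.86%, background 18.2%), and the reverse order held for 1409 (12.7%, background 8.41%). The median log2 fold change, WT minus Aβ0/0, was 0.00 over all genes tested and -0.15 over well-expressed genes, so values of single genes are to be read against a centre slightly below 0. In bulk libraries, fewer cells that express a gene and less RNA of it per cell cannot be told apart.

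**Figure D1:**
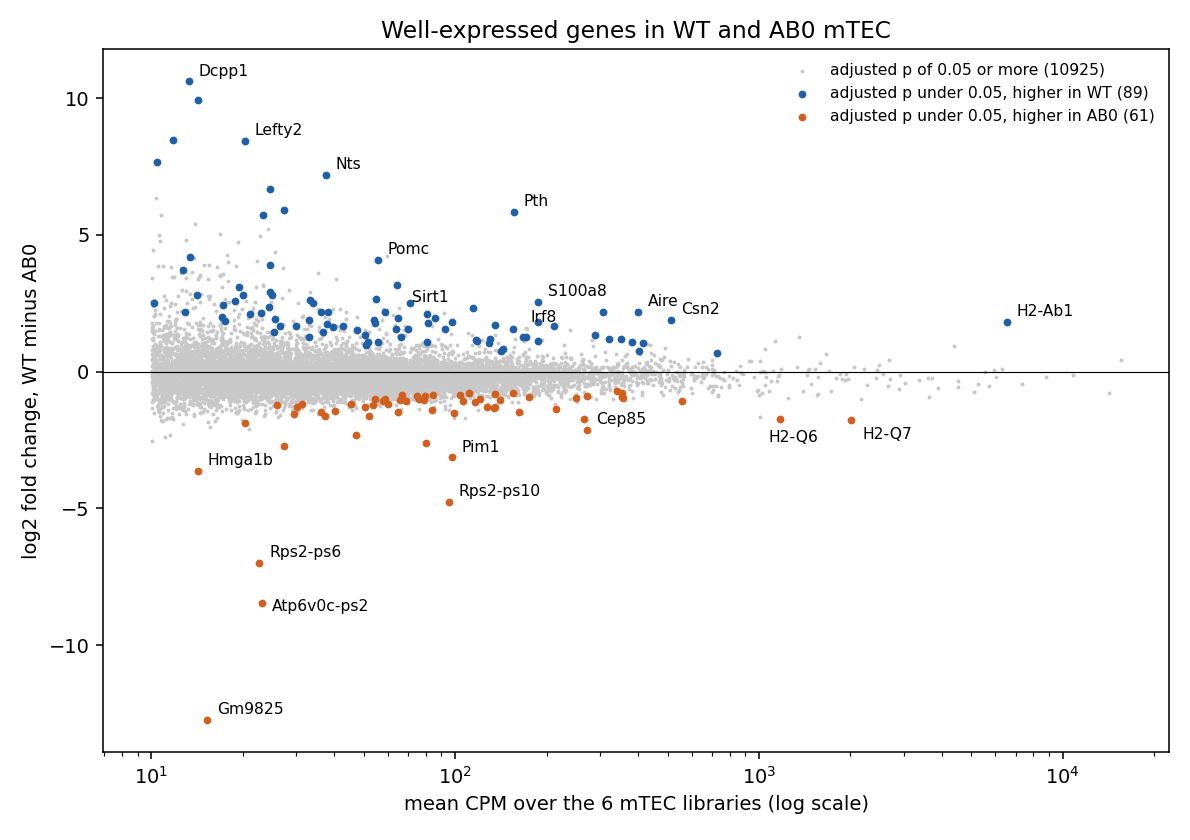
Each point is a well-expressed gene, with its mean level over the 6 mTEC libraries in CPM on a log axis and its fitted log2 fold change, WT minus AB0 (Aβ0/0). The 89 genes in blue were higher in WT and the 61 in orange higher in Aβ0/0 at an adjusted p under 0.05, and the named WT-higher genes lie above 0 and the named Aβ0/0-higher genes below it.

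The calls lay close to the threshold and depended on the libraries. Adjusted p values of the 150 genes ran from 0.0165 to 0.04996, and 129 of the genes differed by more than 2-fold. The smallest absolute log2 fold change was 0.69, and the median was 1.88 for genes higher in WT and -1.21 for genes higher in Aβ0/0. In each of the 150, all libraries of one genotype lay above all of the other. When any one WT library was left out, no gene passed in edgeR (755, 571 and 717 well-expressed genes at an unadjusted p under 0.05 without WT 1, WT 2 and WT 3). Leaving out Aβ0/0 1 gave 540 genes, leaving out Aβ0/0 2 gave 45 and leaving out Aβ0/0 3 gave 13. With the replicate number as a block, no gene passed either in edgeR (1544 well-expressed genes at an unadjusted p under 0.05). DESeq2 without the block called 816 of the 11075, which included all 150, with 323 higher in WT and 493 higher in Aβ0/0. DESeq2 calls within the lists below are to be read beside these shares. The genes called without each of the Aβ0/0 libraries in turn were Dcpp1, Gm13539, I830127L07Rik, Lefty2, Pim1 and Rps2-ps6. The mean over both genotypes admitted 449 genes that reached 10 CPM in WT only, of which 29 were called, and 383 that reached it in Aβ0/0 only, of which 7 were called. The remaining 10243 genes, at 10 CPM or more in both, held 114 calls, 60 higher in WT and 54 higher in Aβ0/0.

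The disrupted gene was checked first. H2-Ab1 (ENSMUSG00000073421) lies on the forward strand of chromosome 17 from 34257689 to 34269419 (GRCm38). Its level in WT was 9025, 11105 and 10451 CPM, compared with 1967, 3799 and 2952 CPM in Aβ0/0, so that transcript of the gene remained in every Aβ0/0 library. No Aβ0/0 library reached the lowest WT library, and the mean in Aβ0/0 was 28.5% of that in WT (log2 fold change 1.81, standard error 0.27, adjusted p = 0.0352). Nearly all of the estimated counts were assigned to the protein-coding transcript H2-Ab1-201 in both genotypes. The share assigned to the retained-intron transcripts H2-Ab1-202 and H2-Ab1-203 was 0.125%, 0.0885% and 0.0871% in WT mTEC and 0.982%, 1.43% and 0.691% in Aβ0/0 mTEC, without overlap. In cTEC the same share was 0.249%, 0.0788% and 0.219% in WT and 0.638%, 0.565% and 0.164% in Aβ0/0, where the genotypes overlapped. The structure of the remaining transcript in Aβ0/0 cells was not resolved by these values.

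Among the other genes of class II presentation, H2-Eb2 passed as well and the rest did not. H2-Aa encodes the α chain that pairs with the product of H2-Ab1, and its level was 5259, 6422 and 5596 CPM in WT and 1950, 4025 and 2983 CPM in Aβ0/0. These libraries did not overlap either, but the difference did not pass after adjustment (log2 fold change 0.95, standard error 0.28, adjusted p = 0.133). H2-Eb2, a β chain gene of the class II isotype I-E that lies 56.2 kb from H2-Ab1, was at 133, 105 and 72.3 CPM in WT and 21.5, 29.6 and 27.9 CPM in Aβ0/0 (log2 fold change 1.97, standard error 0.28, adjusted p = 0.0352), without overlap. H2-Eb1, its more highly expressed relative, was at 2779, 3310 and 3144 CPM in WT and 1452, 2873 and 2461 CPM in Aβ0/0 (adjusted p = 0.53), where the genotypes overlapped. Cd74, the invariant chain that escorts class II molecules, gave 15673, 20134 and 17574 CPM in WT and 8002, 17078 and 14514 CPM in Aβ0/0 (adjusted p = 0.6), again with overlap. The lowest Aβ0/0 value of H2-Ab1, H2-Aa, H2-Eb1 and Cd74 was that of Aβ0/0 1 in each case. Ciita, the regulator that class II genes depend on, had log2 fold change 0.12 (adjusted p = 0.869), and Rfx5 and Rfxap, subunits of the factor that recruits it, had -0.07 (adjusted p = 0.951) and 0.07 (adjusted p = 0.953). Of the 17 well-expressed genes of this list, H2-Ab1 and H2-Eb2 passed, both higher in WT, 14 had a fold change above 0 and the median was 0.44. Ctss, the protease that trims the invariant chain in antigen-presenting cells, had 0.73 (adjusted p = 0.182).

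Levels that take the length of each transcript into account can be compared between genes. In TPM, which scales the length-corrected values of a library to a sum of 1000000, WT mTEC held H2-Ab1 at 11506, 11966 and 11674, H2-Aa at 7229, 7465 and 6748 and H2-Eb1 at 3626, 3653 and 3597, with Cd74 above them at 18984, 20693 and 18715. In Aβ0/0 mTEC, H2-Ab1 was at 2469, 3541 and 3177 TPM, H2-Aa at 2606, 3965 and 3426 TPM and H2-Eb1 at 1841, 2688 and 2686 TPM. H2-Ab1 exceeded H2-Aa in all 3 WT libraries and lay below it in all 3 Aβ0/0 libraries. Cd74 stayed the most abundant of these at 9539, 15035 and 14888 TPM.

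**Figure D2:**
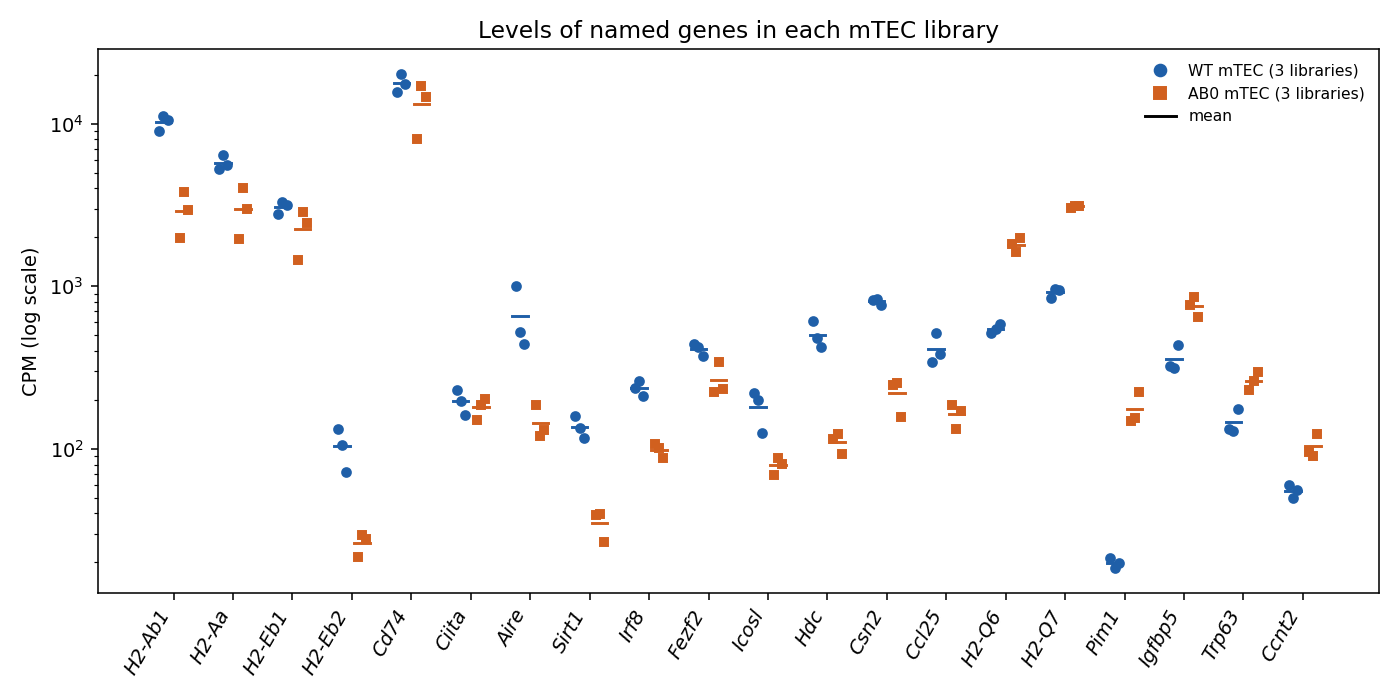
Level of 20 genes in each of the 6 mTEC libraries, in CPM on a log axis, with WT as blue circles, AB0 (Aβ0/0) as orange squares and the mean of each genotype as a bar. H2-Ab1, Aire, Sirt1 and Irf8 lie lower in all 3 Aβ0/0 libraries than in any WT library, H2-Q6, H2-Q7 and Pim1 lie higher, and Cd74 and Ciita overlap.

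Aire and the regulator genes named with it were lower in Aβ0/0 mTEC. Aire was at 1002, 522 and 442 CPM in WT and 186, 119 and 130 CPM in Aβ0/0, with the highest value in the first library of each genotype and no overlap. The mean in Aβ0/0 was 22.1% of that in WT (log2 fold change 2.17, standard error 0.36, adjusted p = 0.0352). Sirt1, a deacetylase that acts on Aire and keeps it active, was at 159, 135 and 116 CPM in WT and 38.9, 39.5 and 26.6 CPM in Aβ0/0 (log2 fold change 1.96, standard error 0.24, adjusted p = 0.0352). Irf8, an interferon regulatory factor, was at 236, 261 and 210 CPM in WT and 107, 101 and 88.2 CPM in Aβ0/0 (log2 fold change 1.26, standard error 0.18, adjusted p = 0.0352). Neither gene overlapped between the genotypes. In cTEC, Sirt1 was at 25.1, 38.5 and 29.4 CPM in WT and 31.5, 35.7 and 23.4 CPM in Aβ0/0, scaled apart from mTEC, and the genotypes overlapped there. The difference of the genotype effect between mTEC and cTEC did not pass for Sirt1 (1.96 on the log2 scale, adjusted p = 0.266), nor for Irf8 (1.89, adjusted p = 0.266) or Aire (-1.19, adjusted p = 0.875).

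Of the 31 well-expressed genes in the list of Aire, Fezf2, their regulators and partners, Aire, Sirt1 and Irf8 passed with higher levels in WT, and these had been named for the comparison with earlier results known. Ccnt2, a cyclin of the elongation factor P-TEFb through which Aire acts, passed in the other direction, with 60.1, 49.6 and 55.4 CPM in WT and 95.8, 90.8 and 124 CPM in Aβ0/0 (log2 fold change -0.91, standard error 0.2, adjusted p = 0.0492). Fezf2, the other known regulator of self-antigens in mTEC, had log2 fold change 0.63 (adjusted p = 0.208). The median of the list was 0.00, with 15 genes above 0 and 16 below.

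The gene Icosl, whose product is the ligand of the T cell costimulator ICOS, lies 25.7 kb from Aire on chromosome 10. Icosl was at 220, 199 and 125 CPM in WT and 69.2, 87.3 and 80.4 CPM in Aβ0/0 (log2 fold change 1.2, standard error 0.25, adjusted p = 0.0413), without overlap. It was the only call among 12 well-expressed costimulatory and coinhibitory ligands. Of 7 ligands tested below 10 CPM 3 were called, all higher in WT, which nearly all calls at that level were. Cd80, the ligand of CD28 that marks mature mTEC, had log2 fold change 1.24 (adjusted p = 0.277).

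No gene passed among the 32 genes of TNF receptor and NF-kB signalling, through which thymocytes act on mTEC. The smallest p values belonged to Tnfrsf9 at 73.9, 76.9 and 56.5 CPM in WT and 29.2, 3.48 and 10 CPM in Aβ0/0 (adjusted p = 0.162), to Cd40 at 232, 223 and 200 CPM against 50, 157 and 81.3 CPM (adjusted p = 0.202) and to Traf1 (log2 fold change 0.58, adjusted p = 0.203). Tnfrsf11a, which encodes RANK, was at 197, 174 and 162 CPM in WT and 172, 127 and 133 CPM in Aβ0/0 (log2 fold change 0.31, adjusted p = 0.55), with overlap. The median of this list was 0.17, and 5 of its genes were higher in WT and 2 higher in Aβ0/0 at an unadjusted p under 0.05, with 3 called by DESeq2, all higher in WT.

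Some genes of mature mTEC were lower in Aβ0/0. Hdc, the enzyme that makes histamine, was at 608, 481 and 420 CPM in WT and 115, 123 and 92.5 CPM in Aβ0/0 (log2 fold change 2.19, standard error 0.21, adjusted p = 0.0352). Fgf21, a fibroblast growth factor also made in mature mTEC, was at 497, 441 and 391 CPM in WT and 149, 261 and 179 CPM in Aβ0/0 (log2 fold change 1.18, standard error 0.25, adjusted p = 0.0413). Neither overlapped. With Aire, they were the 3 of 26 well-expressed genes of the mature and post-Aire list that passed, all higher in WT, and 11 were higher in WT and 0 higher in Aβ0/0 at an unadjusted p under 0.05. The median was 0.45, against -0.15 over well-expressed genes.

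Peripheral self-antigens that are well expressed in mTEC had a median log2 fold change of 0.48 over 40 genes, of which 27 lay above 0. The summed level of the 71 listed genes overlapped, with 5321 to 6853 CPM in WT and 2294 to 11454 CPM in Aβ0/0. Csn2, the milk protein β-casein, was at 826, 839 and 762 CPM in WT and 248, 252 and 157 CPM in Aβ0/0 (log2 fold change 1.88, standard error 0.23, adjusted p = 0.0352). Apoa2, an apolipoprotein of the liver, was at 28.8, 21.1 and 21.2 CPM in WT and 1.75, 1.48 and 2.13 CPM in Aβ0/0 (log2 fold change 3.73, standard error 0.46, adjusted p = 0.0352). These 2 passed. Apoa2, like the neighbouring Fcer1g, reached a mean of 10 CPM in WT only, so that its place among the well-expressed genes rests on the genotype in which it is higher. Of the 24 genes of the list tested below that level 9 passed, all higher in WT, as were 902 of the 904 calls among all genes below 10 CPM. Fcer1g, the Fc receptor γ chain, lies 3.19 kb from Apoa2 on chromosome 1 and was at 25.4, 32.2 and 18.8 CPM in WT and 1.39, 2.28 and 0.495 CPM in Aβ0/0 (adjusted p = 0.0352).

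The largest differences towards WT included several genes with hardly a read in Aβ0/0. Dcpp1, a secreted protein of salivary glands, was at 23.6, 30.5 and 25.7 CPM in WT and 0, 0 and 0.0381 CPM in Aβ0/0. Gm13539 was at 31.4, 27.2 and 26.7 CPM in WT and 0, 0.0352 and 0.0381 CPM in Aβ0/0, and Lefty2, a TGF-β family antagonist of Nodal, was at 62.4, 35.2 and 23.8 CPM against 0.12, 0.141 and 0.0761 CPM. I830127L07Rik, a transcribed pseudogene on chromosome 15, was at 29.6, 21.2 and 19.8 CPM in WT and 0.12, 0.0703 and 0 CPM in Aβ0/0. The carboxylesterase Ces1h was at 20.8, 23 and 18.4 CPM in WT and 0, 0.281 and 0 CPM in Aβ0/0. None of these genes overlapped between the genotypes, and all 5 reached the mean of 10 CPM in WT alone and became members through it. In Dcpp1, Gm13539 and I830127L07Rik no Aβ0/0 library held more than 3 counts, so that a fitted fold change would rest on the small count added by the model, and it is not given for these 3 genes.

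The other WT-higher genes with the largest fold changes, apart from Fcer1g, follow, and each of them reached a mean of 10 CPM in WT only. Pth, the parathyroid hormone, was at 455, 204 and 259 CPM in WT mTEC and 4.62, 0.879 and 10.4 CPM in Aβ0/0 mTEC (log2 fold change 5.85, standard error 0.9, adjusted p = 0.0352). In cTEC, Pth was at 234, 176 and 1612 CPM in WT and 887, 785 and 187 CPM in Aβ0/0, where the genotypes overlapped, and the difference of the effect between mTEC and cTEC did not pass (5.77 on the log2 scale, adjusted p = 0.368). Nts, the precursor of neurotensin, was at 80.2, 71.1 and 72.2 CPM in WT and 1.47, 0.0352 and 0.0381 CPM in Aβ0/0 (adjusted p = 0.0352). Pomc, the precursor of corticotropin and melanocortins, was at 146, 84.4 and 84.7 CPM in WT and 4.86, 10.5 and 3.16 CPM in Aβ0/0 (log2 fold change 4.09, standard error 0.53, adjusted p = 0.0352). The ileal bile acid binding protein Fabp6 had 52.4, 35.4 and 49.7 CPM in WT and 1.12, 1.48 and 0 CPM in Aβ0/0 (adjusted p = 0.0397). Cilp, a cartilage protein, was at 87.2, 33.6 and 40.6 CPM in WT and 0.518, 2.11 and 0 CPM in Aβ0/0 (adjusted p = 0.0488). Sbpl, a relative of spermine-binding protein, was at 54.3, 57.6 and 34.2 CPM against 1.24, 0.141 and 0.0381 CPM (adjusted p = 0.0352), and its sequence is 98.5% identical to that of Sbp, so that its counts are uncertain.

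A few more WT-higher genes are named here after their values were seen. Il12a, a subunit of interleukin 12 family cytokines, was at 40.8, 54.2 and 35.2 CPM in WT and 5.02, 5.06 and 7.31 CPM in Aβ0/0 (log2 fold change 2.9, adjusted p = 0.0352). Ebi3, another subunit of that family, was at 32.5, 42.6 and 45.9 CPM in WT and 9.36, 13.4 and 15.4 CPM in Aβ0/0 (log2 fold change 1.66, adjusted p = 0.0352). Il2rg, the common γ chain of cytokine receptors, was at 211, 224 and 186 CPM against 63.6, 69.6 and 56.8 CPM (log2 fold change 1.71, adjusted p = 0.0352). None of the 3 overlapped between the genotypes. Il12a and the hormone Sct reached the mean of 10 CPM in WT alone. Other hormones with calls were Calcb, a calcitonin-related peptide, at 351, 298 and 229 CPM against 79, 124 and 46.7 CPM (adjusted p = 0.0402), and Sct, secretin, at 38.6, 35 and 38.5 CPM against 11.2, 9.46 and 4.64 CPM (adjusted p = 0.0352).

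Chemokines were called in both directions. Ccl25, which attracts thymocyte progenitors, was at 343, 515 and 383 CPM in WT and 185, 132 and 171 CPM in Aβ0/0 (log2 fold change 1.35, standard error 0.23, adjusted p = 0.0352), and Cxcl14, a chemokine of epithelia, was at 42.7, 49.8 and 60.5 CPM in WT and 111, 106 and 86.6 CPM in Aβ0/0 (log2 fold change -0.99, standard error 0.21, adjusted p = 0.0447). The genotypes did not overlap in either. They were the calls among 24 well-expressed chemokines, with a median of 0.2. Ccl21a, which marks the less mature mTEC and draws thymocytes into the medulla, was at 7733, 11514 and 12169 CPM in WT and 11369, 23336 and 19104 CPM in Aβ0/0 (log2 fold change -0.78, adjusted p = 0.294), with overlap. Its sequence is 99.3% identical to that of Gm21541, so that its counts are uncertain.

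The genes of immature mTEC and progenitor epithelium lay on the other side. Of 26 well-expressed genes in this list, 23 had a fold change below 0 and the median was -0.48, against -0.15 over all well-expressed genes. Igfbp5, a binding protein of insulin-like growth factors, passed with 324, 316 and 436 CPM in WT and 763, 858 and 644 CPM in Aβ0/0 (log2 fold change -1.07, standard error 0.2, adjusted p = 0.0352), without overlap. With an unadjusted p under 0.05, the list held 11 genes higher in Aβ0/0 and 0 higher in WT. The regulator of basal epithelium Trp63 had log2 fold change -0.85 (adjusted p = 0.0579). Krt14, a keratin of the same layer, was at 1073, 1202 and 1490 CPM in WT and 1530, 1801 and 1774 CPM in Aβ0/0 (adjusted p = 0.315), and did not overlap.

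Pim1 had the smallest p value of the genes higher in Aβ0/0 that have no near-identical copy. This serine/threonine kinase, encoded on chromosome 17, was at 21.4, 18.4 and 19.9 CPM in WT and 148, 154 and 224 CPM in Aβ0/0, which is 8.83 times the WT mean (log2 fold change -3.14, standard error 0.24, adjusted p = 0.0165). In cTEC, Pim1 was at 11.4, 6.54 and 13.7 CPM in WT and 80.5, 69.6 and 49.4 CPM in Aβ0/0, again without overlap (log2 fold change -2.66, adjusted p = 0.19). Cep85, a centrosomal protein, was at 127, 74.3 and 99.7 CPM in WT mTEC and 392, 592 and 342 CPM in Aβ0/0 mTEC (log2 fold change -2.14, standard error 0.3, adjusted p = 0.0352). In cTEC, Cep85 lay at 42.5, 42.7 and 66.4 CPM in WT and 70.9, 78.1 and 56.3 CPM in Aβ0/0, with overlap. Gm13301, Gm5859 and Gm10600, of which Gm10600 is annotated as protein-coding and the others as pseudogenes, lie side by side on chromosome 4 with at most 5.04 kb between them and were also higher in Aβ0/0. Gm10600 was at 22.8, 12.8 and 32.5 CPM in WT and 82.3, 162 and 170 CPM in Aβ0/0 (adjusted p = 0.0352), but each of the 3 has near-identical copies in the annotation, so that its counts are uncertain.

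Some further Aβ0/0-higher calls are named here after their values were seen, without a list behind them and without a count of such genes over all genes. The matrix proteins Smoc2 and Tgfbi were at 114, 103 and 141 CPM and at 206, 248 and 278 CPM in WT, against 334, 268 and 324 CPM and 382, 500 and 507 CPM in Aβ0/0 (adjusted p = 0.0352 and 0.0432). Ccn1, a matricellular protein, was at 75.2, 88.7 and 90.3 CPM in WT and 179, 235 and 301 CPM in Aβ0/0 (log2 fold change -1.49, adjusted p = 0.0352). The Wnt receptor Fzd2 had log2 fold change -1.53 (adjusted p = 0.0414) and the secreted Wnt antagonist Sfrp1 had -0.72 (adjusted p = 0.0408). For Sulf1, a sulfatase that edits heparan sulfate, it was -1.31 (adjusted p = 0.0352), and for Lox, which cross-links collagen, -1 (adjusted p = 0.0413). The laminin chain Lama3 (-0.83, adjusted p = 0.0484), the cytolinkers Dst (-0.95, adjusted p = 0.0486) and Macf1 (-0.78, adjusted p = 0.0367) and the actin-binding Actn1 (-0.79, adjusted p = 0.0388) and Tpm1 (-0.8, adjusted p = 0.0413) were called as well. Markers of fibroblasts went in both directions. Of 8 well-expressed fibroblast and mesenchyme genes 0 passed in edgeR, 2 passed in DESeq2 and 3 were higher in Aβ0/0 at an unadjusted p under 0.05. The summed level of all 12 listed genes was 980 to 1355 CPM in WT and 1357 to 2373 CPM in Aβ0/0. Fbn1, which encodes fibrillin, had log2 fold change -0.94 (adjusted p = 0.0689), Acta2, smooth muscle actin, -0.91 (adjusted p = 0.0743), Postn, periostin, -1.66 (adjusted p = 0.22) and the proteoglycan Dcn -0.87 (adjusted p = 0.36). The collagen Col1a1 was at 54.1, 25 and 26.6 CPM in WT and 18.7, 4.11 and 0.114 CPM in Aβ0/0, while Col3a1 was at 49.7, 9.38 and 38.3 CPM against 26.5, 22.3 and 10.6 CPM and overlapped, as did Col1a2. The part of such cells in the differences above was not tested.

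The lists of mimetic cells leaned towards Aβ0/0. The 19 well-expressed genes of microfold and secretory mimetic cells had a median of -0.39. All 19 well-expressed tuft cell genes lay below 0, with a median of -0.75, but 0 passed in edgeR, 1 passed in DESeq2 and 2 were higher in Aβ0/0 at an unadjusted p under 0.05. Dclk1, a kinase that marks tuft cells, was at 101, 63.5 and 85.7 CPM in WT and 186, 126 and 156 CPM in Aβ0/0 (log2 fold change -0.9, adjusted p = 0.103), without overlap. Aβ0/0 1 had the highest level of Espn, the bundling protein of brush borders, with 188 CPM against 95.7 and 101 CPM in the other Aβ0/0 libraries and 87, 63.1 and 78.8 CPM in WT (adjusted p = 0.307). The summed level of the tuft cell list ran from 713 to 1345 CPM in WT and from 916 to 3563 CPM in Aβ0/0.

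**Figure D3:**
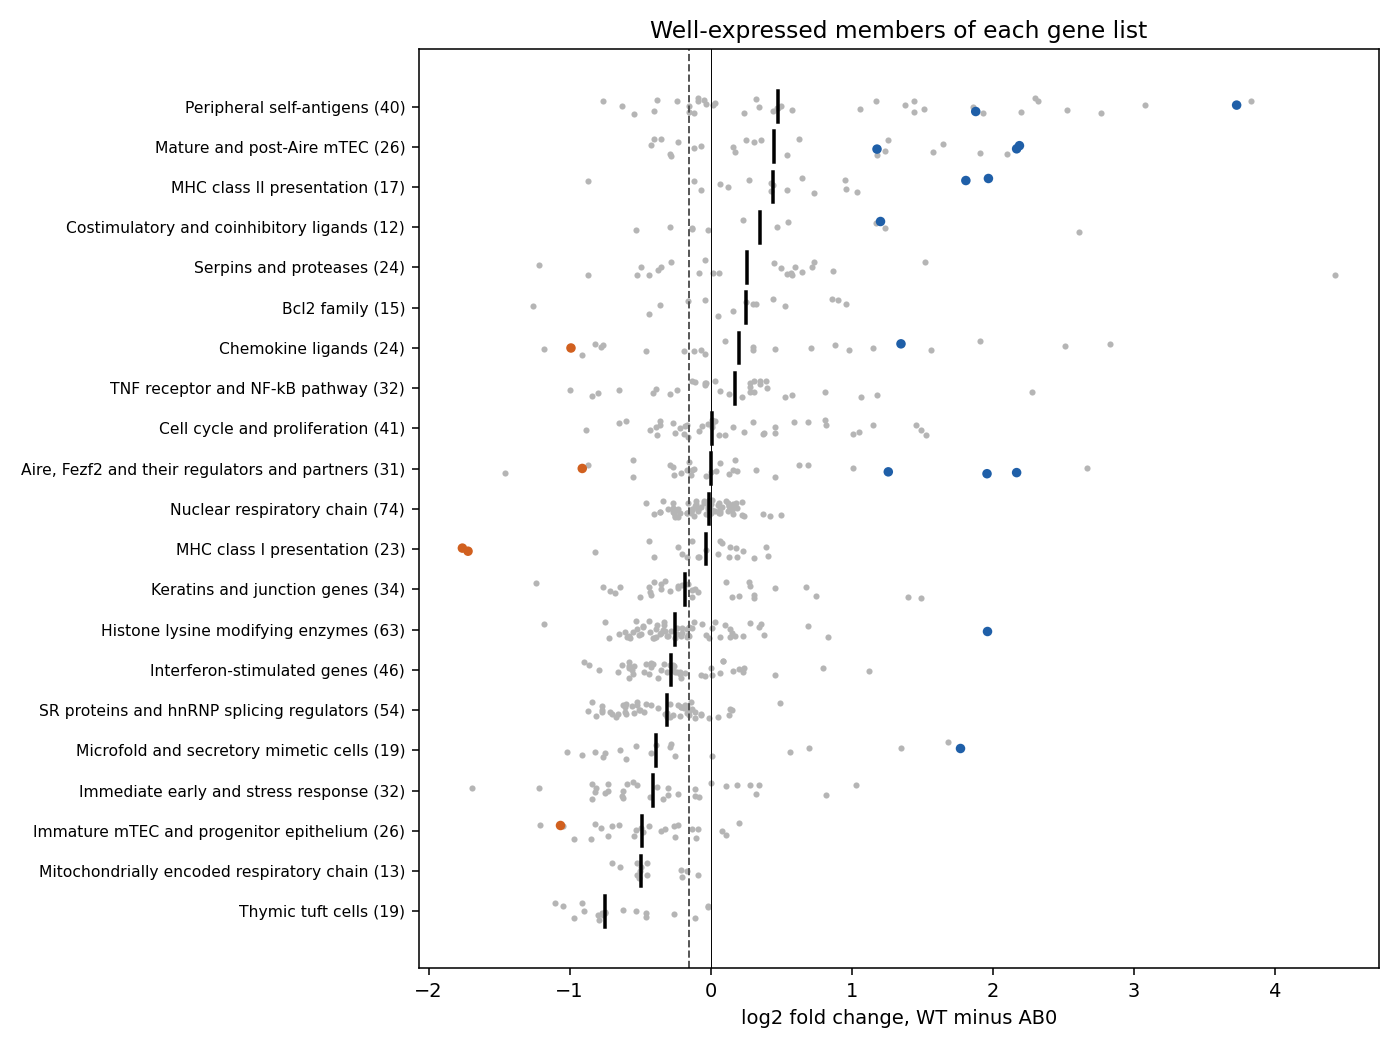
Log2 fold change, WT minus AB0 (Aβ0/0), of the well-expressed genes of 21 lists, with the number of genes of each list in brackets, genes with an adjusted p under 0.05 in blue (higher in WT) or orange (higher in Aβ0/0), list medians as black bars and the median of all well-expressed genes (-0.15) as a dashed line. The medians run from -0.75 for tuft cells to 0.48 for peripheral self-antigens, and no list holds more than 4 coloured points.

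In several lists many genes leaned to one side without a call. None of 54 SR protein and hnRNP splicing regulators passed in edgeR, although 49 lay below 0, the median was -0.31 and 16 were higher in Aβ0/0 at an unadjusted p under 0.05, against 0 higher in WT. DESeq2 called 8 of them, all higher in Aβ0/0, beside 493 of all 11075 well-expressed genes in that direction. The nearest to the threshold was Srsf4 at 52.3, 55.9 and 56.6 CPM in WT and 85.1, 85.5 and 96.8 CPM in Aβ0/0 (log2 fold change -0.7, adjusted p = 0.0747), which did not overlap, followed by Srsf5 (-0.62, adjusted p = 0.0952). All 13 mitochondrially encoded genes of the respiratory chain lay below 0 with a median of -0.49. In edgeR 0 passed, in DESeq2 1 passed and 5 were higher in Aβ0/0 at an unadjusted p under 0.05. mt-Nd6, a subunit of complex I, was at 227, 225 and 265 CPM in WT and 329, 448 and 340 CPM in Aβ0/0 (adjusted p = 0.133). The 74 nuclear genes of the same chain had a median of -0.01, with 0 calls in edgeR, 1 in DESeq2 and 1 gene at an unadjusted p under 0.05. Of 46 interferon-stimulated genes 0 passed in edgeR and 5 in DESeq2, 34 lay below 0 and 9 were higher in Aβ0/0 at an unadjusted p under 0.05, with 1 higher in WT. Iigp1, an interferon-inducible GTPase, was at 197, 267 and 274 CPM in WT and 331, 519 and 527 CPM in Aβ0/0, without overlap but short of the threshold (log2 fold change -0.9, adjusted p = 0.106).

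Immediate early and stress genes had a median of -0.41 over 32 genes, with 0 calls in edgeR, 4 in DESeq2, 6 genes higher in Aβ0/0 and 2 higher in WT at an unadjusted p under 0.05. Btg2 was at 68.6, 48.2 and 35.8 CPM in WT and 268, 129 and 95.2 CPM in Aβ0/0 (log2 fold change -1.69, adjusted p = 0.0902), and Gadd45b, a stress-induced gene, went the other way at 201, 204 and 152 CPM against 90.1, 120 and 62.2 CPM (1.03, adjusted p = 0.1). Sirt1 was the call among 63 histone lysine modifying enzymes, of which 47 lay below 0 (median -0.25). Of 41 cell cycle genes 0 passed in edgeR and 3 in DESeq2, with a median of 0.01 and 4 genes at an unadjusted p under 0.05. The mitotic cyclin Ccnb2 was at 23, 26.2 and 15 CPM in WT and 6.26, 7.17 and 8.75 CPM in Aβ0/0 (adjusted p = 0.104). edgeR called 0 of 34 keratins and junction genes (median -0.18), 0 of 15 genes of the Bcl2 family (median 0.25) and 0 of 24 serpins and proteases (median 0.25). DESeq2 called 4, 3 and 2 of them, beside 816 of all 11075 well-expressed genes, and 9, 4 and 7 had an unadjusted p under 0.05. The closest in these lists were Cldn13, a claudin, with log2 fold change 1.49 (adjusted p = 0.0882), Bcl2a1d, an inhibitor of apoptosis, with 0.86 (adjusted p = 0.0644) and Serping1, the C1 inhibitor, with -1.22 (adjusted p = 0.102). The sequence of Bcl2a1d is 99.1% identical to that of Bcl2a1b, so that its counts are uncertain.

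Some markers of blood cells were called between the genotypes. Coro1a, an actin regulator of leukocytes, was at 36.9, 43 and 57.1 CPM in WT and 16.5, 10.5 and 16 CPM in Aβ0/0 (log2 fold change 1.67, adjusted p = 0.0352), the call among 10 well-expressed thymocyte genes of 20 listed. Of the 20 listed thymocyte genes, 4 (Coro1a, Tcf7, Trac and Ptcra) were higher in every WT library than in any Aβ0/0 library, 1 (Bcl11b) was lower and the others overlapped, which is near the background of 18.2% and 8.41% of all genes tested. Tcf7, a transcription factor of T cells, was at 61.2, 49.8 and 58.6 CPM in WT and 35.9, 3.59 and 36.6 CPM in Aβ0/0 (adjusted p = 0.57), and Bcl11b, another one, was at 21.6, 19.1 and 24.3 CPM against 35.9, 33 and 29.8 CPM (adjusted p = 0.339). The T cell receptor subunit Cd3e was at 5.71, 6.77 and 14.4 CPM in WT and 6.34, 0.352 and 13.7 CPM in Aβ0/0. The summed level of the list was 264 to 482 CPM in WT and 153 to 350 CPM in Aβ0/0. S100a8, a calcium-binding protein of granulocytes, was at 370, 296 and 297 CPM in WT and 32.9, 85.2 and 45.1 CPM in Aβ0/0 (log2 fold change 2.56, adjusted p = 0.0352), as 1 of 7 well-expressed granulocyte genes of 12 listed. The 3 of the list that were tested below 10 CPM passed too, all higher in WT, and 10 of the 12 were higher in every WT library than in any Aβ0/0 library, with 0 the other way. Ngp, which is found in granules of neutrophils, was at 12.3, 20.1 and 10.2 CPM in WT and 0 in every Aβ0/0 library, while Elane, the neutrophil elastase, was at most 0.256 CPM in WT and 0 in Aβ0/0. The summed level of the granulocyte list did not overlap, with 647 to 845 CPM in WT and 120 to 400 CPM in Aβ0/0, and the part of these cells in the differences above was not tested.

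Among genes of dendritic cells, macrophages and B cells, 7 of 22 were well expressed and 0 of these passed in edgeR (1 in DESeq2, 1 at an unadjusted p under 0.05), while 3 of 14 tested below 10 CPM passed. Adgre1, the macrophage antigen F4/80, was at 22.3, 11.2 and 21.6 CPM in WT and 0 in every Aβ0/0 library, and Itgax, the integrin CD11c, was at most 1.53 CPM in WT and 0 in Aβ0/0. The lysozyme Lyz2 was at 540, 597 and 596 CPM in WT and 656, 125 and 111 CPM in Aβ0/0, with overlap. Of the 22 listed genes, 13 were higher in every WT library than in any Aβ0/0 library and 0 lay the other way, beside 18.2% and 8.41% of all genes tested. The summed level of the list was 779 to 837 CPM in WT and 243 to 801 CPM in Aβ0/0. Sirpa and Zbtb46, with log2 fold changes of -0.47 and -0.26, were the well-expressed genes of the list below 0, and neither passed. Adgre1 and Itgax thus lay lower in Aβ0/0, as did H2-Ab1, Irf8 and Fcer1g, which such cells also express, and the part of these cells in those differences was not tested. The summed level of cTEC genes was 3514 to 3971 CPM in WT and 2539 to 3488 CPM in Aβ0/0, with Ccl25 as the call among 12. That of 12 mTEC genes was 17022 to 21097 and 20934 to 32156 CPM, of which Ccl21a alone held 7733 to 12169 and 11369 to 23336 CPM. That of the 11 listed endothelial genes was 86.8 to 126 and 41.4 to 67.6 CPM, and that of the 8 listed erythroid genes 239 to 295 and 84.1 to 416 CPM. Of the mTEC list only Aire passed. The 3 endothelial and 4 erythroid genes that were well expressed held 0 calls in edgeR and 0 in DESeq2, with 1 and 0 genes at an unadjusted p under 0.05. Of 2 erythroid genes tested below 10 CPM 1 passed, higher in WT.

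Genes of MHC class I were called in the opposite direction to H2-Ab1. H2-Q7, a nonclassical class I gene, was at 844, 954 and 950 CPM in WT and 3036, 3124 and 3126 CPM in Aβ0/0 (log2 fold change -1.76, standard error 0.15, adjusted p = 0.0255). Its neighbour H2-Q6, which lies 1.16 Mb (1 Mb is 1000000 bases) from H2-Ab1, was at 513, 547 and 583 CPM in WT and 1813, 1624 and 1973 CPM in Aβ0/0 (log2 fold change -1.72, standard error 0.16, adjusted p = 0.0337). Both were without overlap, and in cTEC their log2 fold changes were -1.12 and -1.55 (adjusted p = 0.695 and 0.483). The genes of this region resemble each other, so the split of reads between them is uncertain. The classical genes H2-K1 and H2-D1 had -0.03 (adjusted p = 0.967) and 0.08 (adjusted p = 0.896), and B2m, the light chain that all class I molecules share, had -0.13 (adjusted p = 0.928). The list of 23 class I genes had a median of -0.03, and H2-Q6 and H2-Q7 were its calls.

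The share of called genes was larger near H2-Ab1 than elsewhere, which is given as a description without a test. Within 5 Mb of the gene 9 of 156 well-expressed genes were called (5.77%), within 20 Mb 17 of 389 (4.37%), on the rest of chromosome 17 it was 3 of 161 (1.86%) and on all other chromosomes 130 of 10525 (1.24%). The 17 genes included the disrupted H2-Ab1 itself. They also held Dcpp1, Sbpl and Clps, which reached 10 CPM in WT alone, and Prss41, which did so in Aβ0/0 alone. Without H2-Ab1 and with 10 CPM or more in both genotypes, the share was 8 of 144 within 5 Mb (5.56%), 12 of 351 within 20 Mb (3.42%), 3 of 152 on the rest of the chromosome (1.97%) and 98 of 9739 elsewhere (1.01%). The median log2 fold change was -0.16 within 20 Mb and -0.15 on the other chromosomes. Of the 17 genes, 8 were higher in WT (Dcpp1, Sbpl, Clps, Hmga1, Psors1c2, H2-Eb2, H2-Ab1 and Crip3) and 9 higher in Aβ0/0 (Pim1, H2-Q6, H2-Q7, H2-T10, Prss41, Glo1, Btbd9, Smoc2 and 9030025P20Rik). Glo1, the enzyme that detoxifies methylglyoxal, was at 56.6, 70.8 and 78.9 CPM in WT mTEC and 142, 126 and 160 CPM in Aβ0/0 mTEC (log2 fold change -1.06, standard error 0.2, adjusted p = 0.0352). The cTEC levels of Glo1 were 119, 133 and 131 CPM in WT and 255, 344 and 292 CPM in Aβ0/0, and the genotypes overlapped in neither subset. Btbd9, 8.45 kb from Glo1, was at 29.9, 24.4 and 28.5 CPM in WT and 78.8, 58.9 and 51.3 CPM in Aβ0/0 (adjusted p = 0.0401).

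Of the remaining genes of this stretch, Psors1c2, which is expressed in skin, was at 98.7, 107 and 78.4 CPM in WT and 7.01, 24.1 and 13.3 CPM in Aβ0/0 (log2 fold change 2.67, adjusted p = 0.0352). Crip3, a LIM domain protein, was at 237, 266 and 186 CPM in WT and 71, 70.5 and 95.6 CPM in Aβ0/0 (log2 fold change 1.54, adjusted p = 0.0352). Clps, pancreatic colipase, was at 41.5, 12.8 and 19.6 CPM against 2.95, 2.85 and 4.72 CPM (adjusted p = 0.0413). None of them overlapped. H2-T10, another nonclassical class I gene, was at 18.1, 26.9 and 31.1 CPM in WT and 84.8, 64.9 and 85.6 CPM in Aβ0/0 (log2 fold change -1.63, adjusted p = 0.0352), and the serine protease Prss41 had -1.87 (adjusted p = 0.0428). Of the 13 called genes within 20 Mb that were also tested in cTEC, 12 had the same direction there, compared with 76 of 118 called genes on other chromosomes. The 12 include the disrupted H2-Ab1 itself, and Prss41, which reached 10 CPM in Aβ0/0 alone. A disrupted allele is inherited together with its flanking sequence, and the part of that sequence in these differences was not tested.

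**Figure D4:**
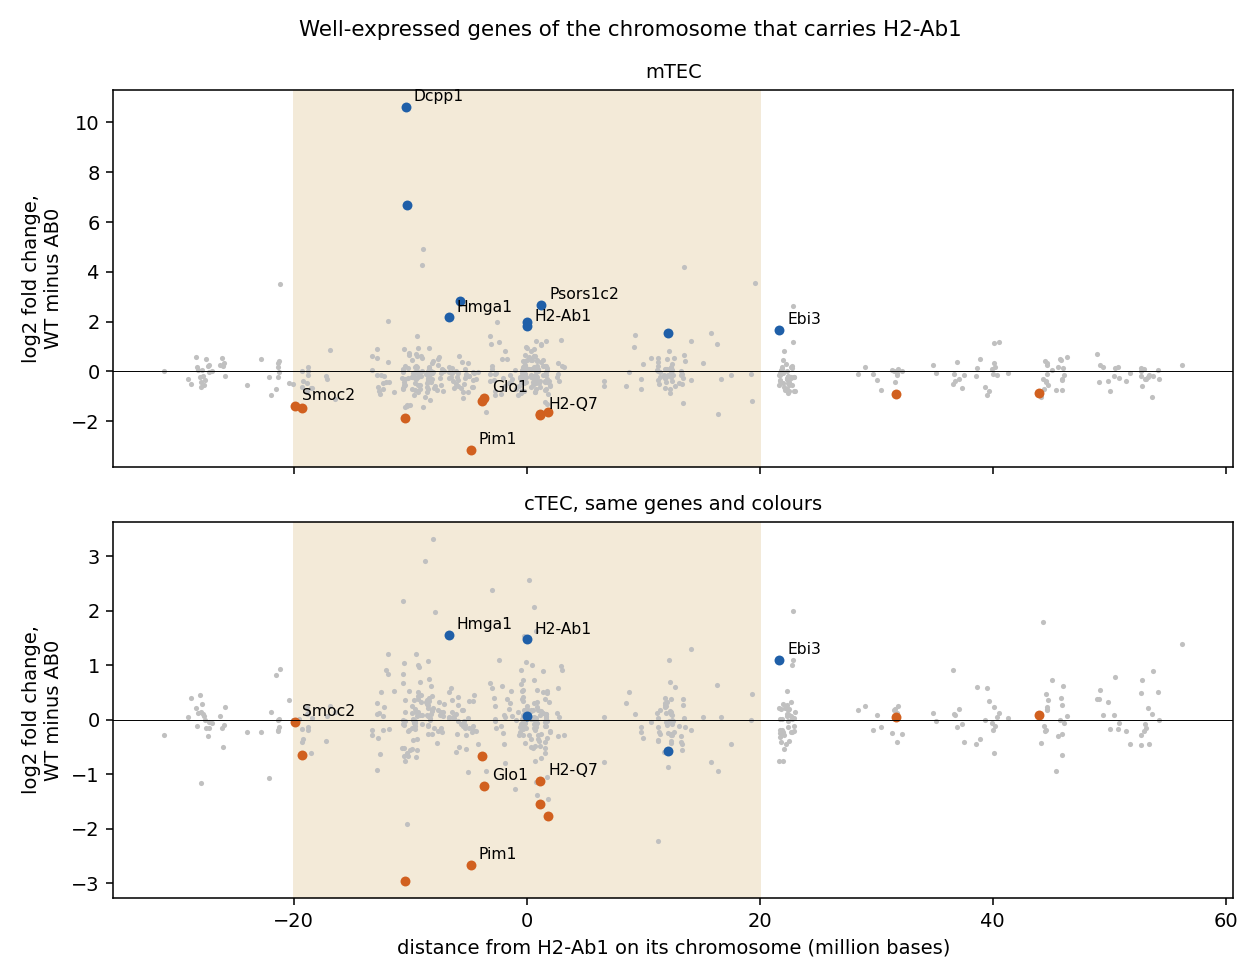
Log2 fold change, WT minus AB0 (Aβ0/0), of the well-expressed genes of chromosome 17 against their distance from H2-Ab1 in Mb, in mTEC (upper panel) and cTEC (lower panel, with its own scale), where genes called in mTEC are blue (higher in WT) or orange (higher in Aβ0/0) and the 20 Mb on either side are shaded. Pim1, Glo1 and H2-Q7 lie below 0 and Hmga1 and H2-Ab1 above 0 in both panels.

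The largest differences towards Aβ0/0 were found in genes with a near-identical copy of their sequence elsewhere. Among well-expressed genes, 484 (4.37%) had another gene whose transcript was at least 97% identical over at least 50% of the length, and among called genes this was 14 (9.33%), 9 of them higher in Aβ0/0. Of these 9, 6 (Gm9825, Atp6v0c-ps2, Rps2-ps6, Rps2-ps10, Hmga1b and Gm5859) reached the mean of 10 CPM in Aβ0/0 alone and became members through the group in which they were high. With genes at 10 CPM or more in both genotypes, such a copy was found for 442 (4.32%) and for 7 of the called genes (6.14%). Gm9825, a processed pseudogene on chromosome 6, was at 0 in all 3 libraries of WT mTEC and reached 26.6, 40 and 24.8 CPM in Aβ0/0 (adjusted p = 0.0352). Atp6v0c-ps2, on the same chromosome, was at 0.213, 0.18 and 0 CPM in WT and 59.8, 45.2 and 33.4 CPM in Aβ0/0 (adjusted p = 0.0352). Rps2-ps6 on chromosome 14 was at 0.213, 0.509 and 0.313 CPM in WT and 38.1, 52.3 and 44.6 CPM in Aβ0/0 (adjusted p = 0.0165), and Rps2-ps10 was at 6.52, 7.34 and 6.35 CPM against 82.4, 240 and 230 CPM (adjusted p = 0.0352). Hmga1b on chromosome 11 was at 2.73, 2.49 and 1.22 CPM in WT and 27.6, 23 and 28.5 CPM in Aβ0/0 (adjusted p = 0.0352). The best matching partner was Rnps1 for Gm9825, Atp6v0c for Atp6v0c-ps2, Hmga1 for Hmga1b and Rps2 for Rps2-ps10, while Rps2-ps6 matched Gm11249 best (98.2%) and is set beside Rps2, from which its coding part differs by more. By the same limits, Rps2-ps10 had 13 such copies, Rps2-ps6 had 3 and Atp6v0c-ps2 had 2, so that counts may be divided among more genes than a pair. Rnps1, Atp6v0c, Rps2 and Hmga1 all lie on chromosome 17 within 20 Mb of H2-Ab1, at 24414565, 24163866, 24718116 and 27556497 (starts, GRCm38). Rnps1 encodes a splicing activator, Atp6v0c a proton pump subunit, Rps2 a ribosomal protein and Hmga1 a chromatin protein. The genotypes did not overlap in any of the copies.

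Stretches of 90 coding bases without gaps are shown for 4 pairs because they let a reader see how little separates the members there. The stretch of Hmga1 and Hmga1b holds 0 differing bases. The stretches cover neither the gaps of the whole alignment (37 positions for Rps2-ps6 and 4 for Hmga1b) nor bases outside the coding part. They were taken from the GENCODE M21 transcripts (GRCm38) and start at coding base 243 of Rnps1, 22 of Atp6v0c, 196 of Rps2 and 1 of Hmga1, read 5′ to 3′. Capitals mark the bases that differ between the members of a pair.
Rnps1: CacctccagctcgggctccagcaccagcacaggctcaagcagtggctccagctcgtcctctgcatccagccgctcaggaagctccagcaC
Gm9825: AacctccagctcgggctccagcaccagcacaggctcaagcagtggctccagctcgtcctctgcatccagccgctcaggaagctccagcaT
Atp6v0c: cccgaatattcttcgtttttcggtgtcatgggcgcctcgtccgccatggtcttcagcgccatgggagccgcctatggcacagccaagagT
Atp6v0c-ps2: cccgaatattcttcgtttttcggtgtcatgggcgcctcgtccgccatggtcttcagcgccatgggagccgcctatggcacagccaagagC
Rps2: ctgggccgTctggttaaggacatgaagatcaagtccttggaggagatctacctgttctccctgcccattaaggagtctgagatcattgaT
Rps2-ps6: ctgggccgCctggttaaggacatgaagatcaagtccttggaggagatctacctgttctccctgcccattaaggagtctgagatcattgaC
Hmga1: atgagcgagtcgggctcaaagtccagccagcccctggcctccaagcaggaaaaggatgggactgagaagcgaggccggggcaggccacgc
Hmga1b: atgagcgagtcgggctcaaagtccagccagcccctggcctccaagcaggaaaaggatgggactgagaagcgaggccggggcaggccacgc

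Over the aligned part of the coding sequence, Gm9825 was 99.4% identical to Rnps1, Atp6v0c-ps2 99.8% to Atp6v0c, Rps2-ps6 95.1% and Rps2-ps10 98% to Rps2, and Hmga1b 98.9% to Hmga1, with gaps counted as differences. The copy took 0% of the sum of both genes for Rnps1 and Gm9825 in the WT mTEC libraries and 21.7%, 18% and 20.8% in the Aβ0/0 mTEC libraries. For Hmga1 and Hmga1b it took 5.23%, 3.3% and 1.83% in WT and 63.9%, 70% and 63.8% in Aβ0/0. Hmga1 itself was at 49.4, 73 and 65.3 CPM in WT and 15.6, 9.88 and 16.2 CPM in Aβ0/0 (log2 fold change 2.17, standard error 0.31, adjusted p = 0.0352). The sum of both was 52.1, 75.4 and 66.5 CPM in WT mTEC and 43.2, 32.9 and 44.7 CPM in Aβ0/0 mTEC, without overlap. In cTEC the sum was 87.1, 88.5 and 89.1 CPM in WT and 86.1, 84.4 and 107 CPM in Aβ0/0, with 0% and 66.9% to 68% taken by the copy. Thus in cTEC the share of the copy differed while the sums overlapped. Not every pair was alike, since Rpl10a-ps1, 100% identical to the coding sequence of Rpl10a on chromosome 17, took 11.2%, 11.1% and 10.9% in WT mTEC and 6.71%, 9.45% and 8.13% in Aβ0/0 mTEC. The calls of genes with near-identical copies are therefore uncertain as to the gene, and without these and the genes within 20 Mb of H2-Ab1, 122 of the 150 calls were left, 78 higher in WT and 44 higher in Aβ0/0.

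**Figure D5:**
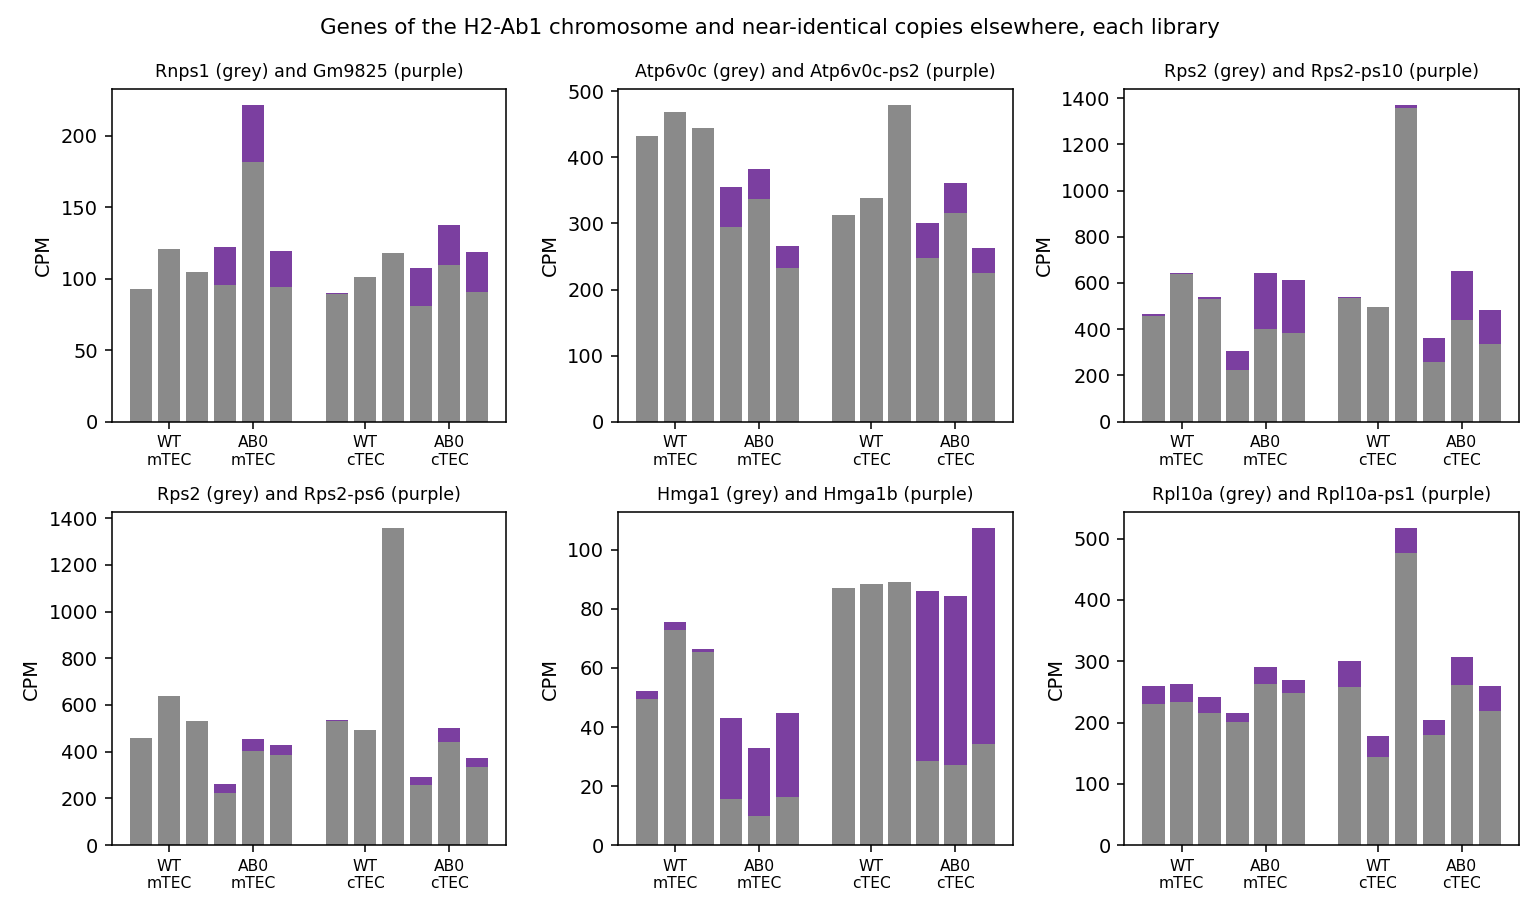
Level in CPM of 5 genes of chromosome 17 (grey) and of a gene with a copy of their sequence (purple, stacked on top) in 6 pairs, as Rps2 is drawn with each of 2 copies, with 1 bar for each of the 3 WT and 3 AB0 (Aβ0/0) libraries of mTEC and of cTEC. In 5 pairs the purple part is visible mainly in the Aβ0/0 libraries of both mTEC and cTEC, whereas for Rpl10a and Rpl10a-ps1 it is visible in every library.

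Position brought out some further pairs, which were looked at after the calls were known. Of 11 pairs of called genes at most 100 kb apart 9 had the same direction, and 3 of these 9 were formed by Gm13301, Gm5859 and Gm10600, whose counts are uncertain. The others were Aire and Icosl, Apoa2 and Fcer1g, Btbd9 and Glo1, Dcpp1 and Sbpl, H2-Ab1 and H2-Eb2, and H2-Q6 and H2-Q7. The share among all neighbouring genes was not computed, so that nothing is read from this count. On the Y chromosome 2 of 4 well-expressed genes were called, Gm47283 at 151, 103 and 111 CPM in WT and 364, 392 and 473 CPM in Aβ0/0 (adjusted p = 0.0352) and Gm21244 at 46.9, 36.9 and 38 CPM in WT and 8.09, 6.89 and 16.7 CPM in Aβ0/0 (adjusted p = 0.0445). Both differ in the opposite direction to each other, and Gm21244 is 100% identical to another gene over the aligned part. The Y-linked gene Ddx3y was at 11.5, 0.15 and 15.7 CPM in WT and 21.5, 0.316 and 4.26 CPM in Aβ0/0, and Eif2s3y at 16.3, 0.24 and 28.2 CPM against 30.5, 11.1 and 20.9 CPM. Y-linked transcripts thus differed between the pools within each genotype.

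Whether differences were particular to mTEC was tested on all 12 libraries. In cTEC alone, 3 well-expressed genes of mTEC were called, which were all 3 calls among the 15432 genes tested there (0.0194%). They were Gm9825, Atp6v0c-ps2 and Hmga1b (adjusted p = 0.0253, 0.0199 and 0.00314), whose counts are uncertain because of near-identical copies. The difference of the genotype effect between mTEC and cTEC passed for 2 well-expressed genes, Hmga1b and Ccl9, against 0.0103% of the 19461 genes tested, while 638 had an unadjusted p under 0.05. Neither gene passed with the pool as a block. Ccl9, a chemokine of myeloid cells, was at 67, 91.4 and 77.4 CPM in WT mTEC and 204, 94.1 and 118 CPM in Aβ0/0 mTEC (log2 fold change -0.82, adjusted p = 0.273). In cTEC, Ccl9 was at 3.64, 8.28 and 8.6 CPM in WT and 0.412, 0.476 and 0.622 CPM in Aβ0/0, so that it lay higher in Aβ0/0 in one subset and lower in the other without overlap. Among called genes that were also tested in cTEC, 49 of 73 with a higher level in WT mTEC had the same direction in cTEC (median log2 fold change 0.34), as did 40 of 61 with a higher level in Aβ0/0 mTEC (median -0.19). For the remaining called genes, such as Aire, Sirt1, Hdc and Pth, a genotype effect that differs between the subsets was not shown by this test.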

How the data were processed

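mTEC and cTEC were sorted from pooled thymi, and libraries were made with SMART-Seq v4 from poly-A RNA. The authors used bcl2fastq 2.20.0 and Trim Galore (per the labels) and estimated transcript abundance with kallisto 0.43, with mm10 named as the build. The deposited estimated counts (1 value per transcript and library) and the deposited TPM values come from kallisto, so that reads shared by similar transcripts are divided by a model. The table of regularized log2 values was not used here.

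Estimated counts were summed per gene with GENCODE M21 (GRCm38) and rounded to whole numbers. The 1295 transcripts without a match held 0.45% to 0.512% of counts. WT and Aβ0/0 mTEC were compared with edgeR 4.0.16 (TMM, filterByExpr, robust quasi-likelihood test; R 4.3.3), without covariates, with Benjamini-Hochberg adjustment over all genes tested and 0.05 as threshold. The procedure was also run on simulated counts with the same spread in both genotypes. The spread differed between the genotypes here, so that run checks the code and not the calls. DESeq2 1.42.0, other normalizations, filters and expression limits, length-scaled counts, a fit on 12 libraries, a replicate block and fits without each library were alternatives. Copies were searched with BLAST 2.17.0. Python 3.11.15 was used for the other steps. Replicates are separate pools of mice as far as the labels tell, so that p values measure the spread between pools.

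Deviations from the group means correlated by 0.455, 0.25 and 0.112 between WT and Aβ0/0 libraries of the same number over well-expressed genes (0.291, 0.117 and 0.064 over all genes tested). The numbers were therefore taken as pairing the libraries, from the data and not from a label, and the fit with the block is given beside the main result.

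The genes and lists were chosen with earlier results of these data known. Genes were named when they were H2-Ab1, Aire, Sirt1 or Irf8, when they were among the 12 called genes with the largest fold change in either direction, when they were called in a list (otherwise up to 3 with the smallest p), or when they were called within 20 Mb of H2-Ab1. Further genes described in the lists are reference genes of each topic. Lists are given by counts and medians, without a test. Some genes that this rule names are not reported here.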

Additional observations from a re-analysis of the deposited data

Results flagged for a closer look

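For 2 genes the genotype effect differed between mTEC and cTEC in the test of the difference itself (edgeR, all 12 libraries). For Ccl9 the difference was -4.52 on the log2 scale (adjusted p = 0.0321). Ccl9 was at 204, 94.1 and 118 CPM in Aβ0/0 mTEC against 67, 91.4 and 77.4 CPM in WT mTEC, and at 0.412, 0.476 and 0.622 CPM in Aβ0/0 cTEC against 3.64, 8.28 and 8.6 CPM in WT cTEC. For Hmga1b the difference was 10.25 (adjusted p = 0.00596). Hmga1b was higher in Aβ0/0 in both subsets, at 57.6, 57.3 and 73 CPM in Aβ0/0 cTEC and 0 in every WT cTEC library, so that the fitted size of the difference depends on the small count that the model adds. With the pool as a block 0 well-expressed genes passed this test.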

How the results depend on the processing

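The count of 150 well-expressed genes (89 higher in WT, 61 in Aβ0/0, 17 within 20 Mb of H2-Ab1) moved by more than 1.5 times in several alternatives. DESeq2 gave 816 on 6 libraries (323, 493 and 50) and 273 on 12 (147 and 126). edgeR on 12 libraries gave 15 (6, 9 and 5), no filter on low counts gave 22 (13, 9 and 4) and a fit of well-expressed genes alone 38 (28, 10 and 8). With the replicate block, all 4 counts were 0. Without 1 library they ran from 0 to 540 (0 to 247, 0 to 293 and 0 to 32). Plain library totals gave 39 genes higher in Aβ0/0 and 125 in WT, a WT share of 76.2% in place of 59.3%, with the median of all genes moved to 0.12. At 10 CPM or more in each library, 53 genes were higher in WT. The cause of these changes was not tested.

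H2-Ab1 lost its call with log2 fold change 1.82 in edgeR on 12 libraries, 1.81 without the filter and 1.86 with the block (1.59 to 2.06 without 1 library). For Aire these values were 2.2, 2.17 and 2.11, with 2.28 for well-expressed genes alone (1.73 to 2.42 without 1 library). For Irf8 they were 1.28, 1.25 and 1.25 (1.18 to 1.35), and Sirt1 lost its call with the block at 1.97 (1.79 to 2.09 without 1 library). None of the 4 changed direction. The count of differences between mTEC and cTEC was 0 with the pool as replicate block and 1 to 5 without 1 library. Hba-a1, at -0.2, turned to 0.06 with the block and 0.48 without Aβ0/0 1 (-0.6 to 0.48 without 1 library), and Hbb-bs, at -0.13, to 0.22 and 0.64 (-0.57 to 0.64), neither called. Of the other values for named genes, 954 kept direction and side of the threshold, 370 lost their call and 50 gained one.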
